A study of Homo sapiens with 6 samples.

Results

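The nuclear genes of the mitochondrial protein import machinery were examined in RNA recovered with 2 epitope-tagged ribosomal proteins from human HEK293-T cells. The members were chosen by gene symbol: every TIMM and TOMM gene with a number, together with TIMMDC1, PAM16, GRPEL1, GRPEL2, HSCB, SAMM50, MTX1, MTX2, CHCHD4, GFER, PMPCA, PMPCB and OXA1L. This gave 36 of the 16834 genes listed, and no filter on low values was applied, so all 36 were tested. TOMM6 and TOMM20L were not analysed here.

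Nearly all mitochondrial proteins are made on cytosolic ribosomes and are carried into the organelle by dedicated translocases. The TOM complex is the entry gate of the outer membrane, the SAM complex inserts beta-barrel proteins there, the small TIM chaperones and the MIA disulfide relay serve the space between the membranes, and the TIM22 and TIM23 complexes insert proteins into, or pass them through, the inner membrane. In the matrix an HSP70 motor pulls on the incoming chain, the processing peptidase MPP removes the presequence, and OXA1L inserts proteins into the inner membrane from the matrix side.

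All cells were asynchronous HEK293-T Flp-In cells, a transformed human embryonic kidney line, grown with Hygromycin B and without a synchronizing drug. They carried 1 ccTaggedRP construct, placed by recombination behind a CAG promoter. Its single mRNA encodes Flag-RPL10a-hCdt, predicted to accumulate in G1/S, and HA-RPL10a-hGem, predicted to accumulate in S/G2/M, joined by a self-cleaving peptide, so both groups carried both tagged forms of mouse RPL10a. The groups differed in the antibody: 3 Flag-IPs and 3 HA-IPs, each sequenced as poly(A)-selected RNA with paired reads of 150 bases. Nothing in the labels says that the 3 replicates of a group came from separate cultures, so the p-values measure the spread between these libraries, which may be technical, and no RNA from whole lysate was analysed here. The libraries held between 23174532 reads (Flag-IP 1) and 44134833 reads (HA-IP 1) on the listed genes.

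The cells and the libraries were described with marker genes, in lists chosen with earlier results of these data known. The epithelial markers KRT8, KRT18, EPCAM and CDH1 were present in every library, with means of 680 to 10631 normalized counts, and EPCAM and CDH1 were called higher in the HA-IPs. The 5 embryonic kidney markers were low, with means of 39.8 to 273, and PAX2 among them was called higher in the Flag-IPs. Heart muscle markers separated the groups. Of the 20 markers on the list 16 were tested, all 16 were called higher in the Flag-IPs with a median log2 fold change of -4.21, and their summed level was 66886 to 142513 normalized counts in the Flag-IPs and 1769 to 13462 in the HA-IPs. CSRP3 was at 0 in HA-IP 1 and HA-IP 2, MYH7 and DES were above 0 in every library, and NPPA, NPPB, PLN and MYL7 were not analysed here. Of the fibroblast markers 5 of 6 tested were called higher in the Flag-IPs, with sums of 4874 to 7456 normalized counts there and 1528 to 2124 in the HA-IPs, and of the endothelial markers 3 of 4, with sums of 127 to 216 and 50.7 to 69.2. Of the 5 nephron markers tested, SLC34A1 and SLC12A1 were called higher in the Flag-IPs and LRP2 in the HA-IPs. The part of these transcripts in the values below was not tested, and because all 3 Flag-IPs carried them they cannot be told apart from the Flag antibody by leaving a library out.

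Of the 36 members, 7 passed the test with more RNA in the Flag-IPs (19.4%), 1 passed with more in the HA-IPs (2.78%), and 28 did not pass. Over all genes the same test called 7.10% higher in the Flag-IPs, 5.79% higher in the HA-IPs and 12.9% in either direction. The 7 genes were TIMM8B, TIMM8A and TIMM13 among the small TIM chaperones, TIMM17A and TIMM17B of the TIM23 complex, TOMM5 of the TOM complex, and the co-chaperone HSCB. The 1 gene higher in the HA-IPs was PMPCA, the alpha subunit of MPP. The test was limma on log2(normalized count + 1), where a normalized count is the reads of a gene over the size factor of its library, with the Benjamini-Hochberg adjustment over all 16834 genes and a call at an adjusted p-value of at most 0.05. Fold changes are given as log2 of HA-IP over Flag-IP, so values below 0 mean more in the Flag-IPs. Each IP pooled RNA from asynchronous cells, so a lower value from fewer contributing cells cannot be told apart from less recovered RNA of that gene per cell. Recovery by the antibody, in which the groups differed, cannot be told apart from either.

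Across the members the median log2 fold change was -0.08, against -0.00489 over all genes, with 24 members below 0 and 12 above. An unadjusted p under 0.05 was reached by 16 of the 36 members, beside 4587 of all 16834 genes. The 3 values of each group did not overlap for 14 members higher in the Flag-IPs and for 4 higher in the HA-IPs, beside 16.1% of all genes in each of these directions and 32.2% in both together. The count of 7 depended on single libraries: without Flag-IP 2 only TIMM8B and TOMM5 were called and no member was called higher in the HA-IPs (beside 3.07% and 0.612% of all genes), although 10 members had an unadjusted p under 0.05 and more in the Flag-IPs and 2 had more in the HA-IPs. Without HA-IP 1 or HA-IP 2 the members called higher in the Flag-IPs numbered 4 and 3, beside 3.30% and 3.75% of all genes, and PMPCA stayed called (beside 1.34% and 1.59%). Without Flag-IP 3, 8 members were called higher in the Flag-IPs, with 3 in the HA-IPs, PMPCA, TIMM29 and GFER (beside 8.96% and 9.21% of all genes). Without Flag-IP 1 the counts were 6 and 1 (beside 6.75% and 5.19%), and without HA-IP 3 they were 5 and 1 (beside 5.33% and 1.89%). In limma without its mean-variance trend no member passed, with 8 members higher in the Flag-IPs and 2 in the HA-IPs at an unadjusted p under 0.05, and that fit called 1.08% of all genes higher in the Flag-IPs and 0.0356% higher in the HA-IPs. Here and below, the share of all genes at an unadjusted p under 0.05 is given for the main fit only. The unadjusted counts of other fits thus have no background beside them.

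**Figure D1:**
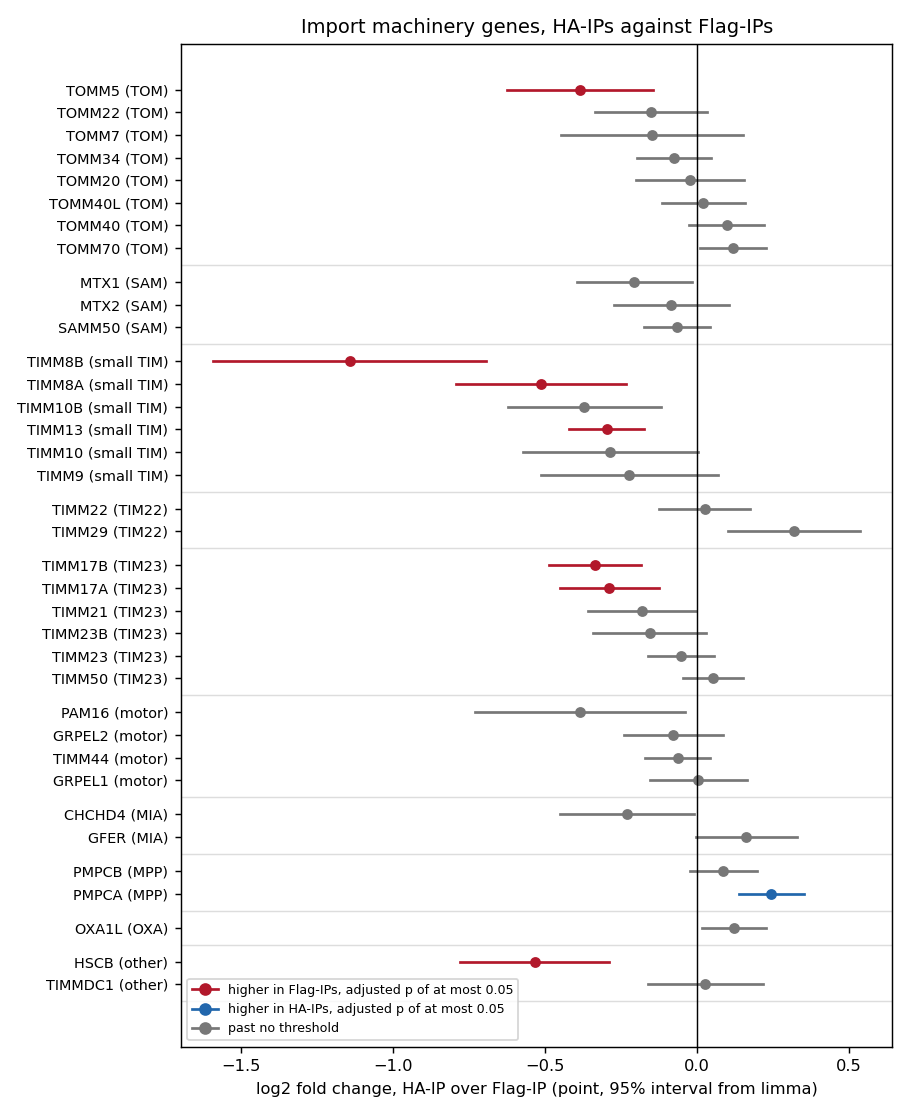
The log2 fold change of HA-IP over Flag-IP (x axis) for each of the 36 members (y axis, grouped by complex), with points for the estimate and lines for the 95% interval from limma over 3 libraries per group. All 6 small TIM genes sit below 0, TIMM8B lies farthest left at -1.14, and PMPCA at 0.24 is the only member called to the right of 0.

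The small TIM proteins are the group with the lowest median, -0.33, and all 6 were below 0. They are short chaperones of the intermembrane space that escort hydrophobic proteins between the membranes, as hexamers of TIMM9 with TIMM10 and of TIMM8A with TIMM13. Each folds around twin cysteine motifs, in which a pair of cysteines is separated by 3 residues. A search of their coding sequences found both motifs in all 6, while 221 of 13864 protein-coding sequences searched (1.59%) held 2 such motifs 8 to 25 codons apart. The coding stretch from the first to the last of these cysteines is shown for each gene, since these codons are what the 6 genes have in common at the sequence level. It is written 5′ to 3′ on the coding strand with the 4 cysteine codons in capitals, from the GRCh38 genome and the canonical transcripts of GENCODE 44.
TIMM8B: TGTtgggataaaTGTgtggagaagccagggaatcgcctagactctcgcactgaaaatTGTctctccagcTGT
TIMM8A: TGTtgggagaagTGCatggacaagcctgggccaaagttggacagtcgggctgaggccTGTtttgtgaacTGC
TIMM13: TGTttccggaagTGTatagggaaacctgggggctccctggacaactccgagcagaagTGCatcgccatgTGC
TIMM9: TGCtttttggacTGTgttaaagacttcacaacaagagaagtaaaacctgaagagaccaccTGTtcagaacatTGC
TIMM10: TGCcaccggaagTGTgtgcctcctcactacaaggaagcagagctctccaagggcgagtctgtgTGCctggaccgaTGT
TIMM10B: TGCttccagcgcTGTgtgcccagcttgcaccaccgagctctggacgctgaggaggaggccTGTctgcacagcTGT

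The TIMM8B stretch lies in exon 2 at chr11:112085370-112085441 on the minus strand, and that of TIMM10 in exon 3 at chr11:57528828-57528905, also minus. The other stretches are split by an intron. That of TIMM8A runs from exon 1 to exon 2 at chrX:101346595-101348538 (minus), that of TIMM13 from exon 2 to exon 3 at chr19:2427029-2427309 (minus), that of TIMM9 from exon 5 to exon 6 at chr14:58409148-58410896 (minus), and that of TIMM10B from exon 2 to exon 3 at chr11:6481799-6482065 (plus). The motifs stand 14 codons apart in TIMM8B, TIMM8A and TIMM13, 15 apart in TIMM9 and TIMM10B, and 16 apart in TIMM10. The genes called in the main fit were those with the 14-codon spacing, a match noted after the values were seen and not tested. It did not hold in every limma fit. TIMM10B, with 15 codons, was called with GC content and length trends removed (adjusted p = 0.0321). It was also called with the same total per library (0.0377) and without Flag-IP 3 (0.0415). Its log2 fold change in the main fit, -0.37, was farther from 0 than that of TIMM13, -0.30.

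TIMM8B (ENSG00000150779, chr11:112084800-112086798, 2 exons) showed the largest difference of any member. It had 831, 568 and 450.1 normalized counts in Flag-IP 1, 2 and 3 and 210.3, 284 and 329 in HA-IP 1, 2 and 3. Every Flag-IP lay above every HA-IP, and the values spread widely within each group, with Flag-IP 1 highest and HA-IP 1 lowest. The log2 fold change was -1.14 (standard error, SE, 0.205, 95% interval -1.59 to -0.69, adjusted p = 0.00559), or 2.21-fold more in the Flag-IPs. The call held with each of the 6 libraries left out in turn, with log2 fold changes of -1.35 to -0.90. Of the exon bases of TIMM8B, 30.1% overlap NKAPD1 on the opposite strand, and whether the reads were counted by strand is not given in the sources used here. NKAPD1 itself was higher in the Flag-IPs, at a log2 fold change of -0.29 (adjusted p = 0.0146) and means of 1412 and 1156 normalized counts in the Flag-IPs and HA-IPs.

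TIMM8A (ENSG00000126953, on chromosome X) and TIMM13 (ENSG00000099800, on chromosome 19), which form a hexamer with each other, were both called in the Flag-IP direction. TIMM8A had 505, 412 and 359 normalized counts in Flag-IP 1, 2 and 3 and 326, 285 and 275 in HA-IP 1, 2 and 3. The groups did not overlap, and the lowest Flag-IP was above the highest HA-IP by less than the range within the Flag-IPs. Its log2 fold change was -0.51 (SE 0.127, adjusted p = 0.0231), and the call was lost without Flag-IP 2 (adjusted p = 0.0831), HA-IP 2 (0.0938) or HA-IP 3 (0.0831). TIMM13 had 1856, 1983 and 1871 normalized counts in the Flag-IPs against 1483, 1578 and 1586 in the HA-IPs, the tightest groups among the small TIM genes called. Its log2 fold change was -0.30 (SE 0.0565, adjusted p = 0.00733), and of the fits that left out a library only the one without Flag-IP 2 lost the call (adjusted p = 0.0552). TMPRSS9, which overlaps 20.1% of the TIMM13 exon bases on the opposite strand, was low, with means of 17.5 and 16.6 normalized counts in the Flag-IPs and HA-IPs.

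TIMM10B, TIMM10 and TIMM9 did not pass. TIMM10B, which works beside the TIM22 complex, had 369, 298 and 299 normalized counts in the Flag-IPs against 229, 255 and 259 in the HA-IPs. Its groups were separate, and its log2 fold change of -0.37 (SE 0.115) had an adjusted p of 0.0559, which fell to 0.0415 without Flag-IP 3. TIMM10, the partner of TIMM9, had 284, 232 and 229 in the Flag-IPs against 177, 214 and 219 in the HA-IPs, with a log2 fold change of -0.29 (SE 0.131, adjusted p = 0.188). TIMM9 had a log2 fold change of -0.22 (adjusted p = 0.317), and of its Flag-IP values of 422, 292 and 308 the second lay within the HA-IP range of 276 to 301. For 5 of the 6 small TIM genes the groups did not overlap, all with more in the Flag-IPs, beside 16.1% of all genes in that direction.

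The TIM23 complex is the inner membrane channel for proteins with a presequence. It held the other pair of called translocase genes, TIMM17A and TIMM17B, paralogs that take the same place beside TIMM23. TIMM17A (ENSG00000134375, chromosome 1) had 1899.9, 1648 and 1682 normalized counts in the Flag-IPs against 1324, 1408 and 1548 in the HA-IPs, and TIMM17B (ENSG00000126768, chromosome X) had 1426, 1365 and 1253 in the Flag-IPs against 1010.5, 1124 and 1066 in the HA-IPs. Neither gene overlapped between the groups. The log2 fold change was -0.29 (SE 0.0746, adjusted p = 0.0277) for TIMM17A and -0.34 (SE 0.069, adjusted p = 0.0103) for TIMM17B. TIMM17A lost the call without Flag-IP 2 (adjusted p = 0.0652), HA-IP 1 (0.125) or HA-IP 2 (0.104), and TIMM17B lost it without Flag-IP 2 (0.0615) or HA-IP 1 (0.0579). PQBP1 shares 15.5% of the TIMM17B exon bases on the opposite strand, and its log2 fold change was 0.14 (adjusted p = 0.156).

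The channel gene TIMM23 did not differ beyond the spread, with 2740.2, 2619 and 2684 normalized counts in the Flag-IPs against 2568, 2663 and 2529.6 in the HA-IPs. Its log2 fold change was -0.05 (SE 0.0496, 95% interval -0.16 to 0.06, adjusted p = 0.554). TIMM23B is a near copy of TIMM23, so reads could be split between them and both values are uncertain. TIMM23B was at -0.16 (adjusted p = 0.265), the subunit TIMM21 at -0.18 (adjusted p = 0.171) and the presequence receptor TIMM50 at 0.05 (adjusted p = 0.50). In the separate TIM22 complex, which inserts carrier proteins, the channel TIMM22 was at 0.03 (adjusted p = 0.853). Its partner TIMM29 had 503, 599 and 651 normalized counts in the Flag-IPs against 784, 706 and 688 in the HA-IPs. The groups did not overlap, and the log2 fold change of 0.32 (SE 0.099) missed the threshold at an adjusted p of 0.0563, and passed it without Flag-IP 3 (0.0157).

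In the TOM complex TOMM5, one of the small subunits around the channel, was the only gene of 8 that was called. TOMM5 (ENSG00000175768, chromosome 9) had 610.4, 465 and 523 normalized counts in the Flag-IPs against 368, 426 and 425 in the HA-IPs. The groups were separate, and the log2 fold change was -0.39 (SE 0.109, adjusted p = 0.0398). The call was lost without Flag-IP 1 (adjusted p = 0.0822), HA-IP 1 (0.162), HA-IP 2 (0.091) or HA-IP 3 (0.0746), and also under quantile normalization (0.0706) and with GC content and length trends removed (0.189). Of its exon bases 9.43% are shared on the same strand with ENSG00000256966 and 14.4% with ENSG00000255872, so its value is uncertain. The other small subunit, TOMM7, overlapped between the groups, at a log2 fold change of -0.15 (adjusted p = 0.536) that turned to 0.11 with those trends removed and to 0.0225 without HA-IP 1.

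The channel and the receptors of TOM showed small differences. TOMM40, the channel, had 6456, 6239.7 and 7041 normalized counts in the Flag-IPs against 6672, 7207 and 7217 in the HA-IPs, with a log2 fold change of 0.10 (SE 0.0568, adjusted p = 0.305). TOMM20, the presequence receptor, had 9767, 7937 and 7606 in the Flag-IPs against 8571, 7909 and 8280.1 in the HA-IPs. Its log2 fold change was -0.02 (adjusted p = 0.886), and it turned to 0.09 without Flag-IP 1, the library with its highest value, and to 0.0066 without HA-IP 2. The receptor TOMM22 was at -0.15 (adjusted p = 0.277), and TOMM70, the receptor for carrier proteins, was at 0.12 (adjusted p = 0.144) with separate groups of 4365 to 4663 and 4693 to 4997. TOMM34, a cytosolic co-chaperone, was at -0.08 (adjusted p = 0.419). TOMM40L, a paralog of the channel gene, had 1197, 1103 and 1087 in the Flag-IPs against 1128, 1158 and 1148 in the HA-IPs, and its log2 fold change of 0.02 (adjusted p = 0.867) turned to -0.03 with the same total per library.

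The 3 SAM genes were all below 0 and none was called. SAMM50, the core of the complex, had 3151, 3185 and 3148 normalized counts in the Flag-IPs against 3112, 2894 and 3061 in the HA-IPs. These groups were separate by a narrow margin, with a log2 fold change of -0.07 (SE 0.0493, 95% interval -0.17 to 0.04, adjusted p = 0.439). The metaxins MTX1 and MTX2 were at -0.21 (adjusted p = 0.145) and -0.08 (adjusted p = 0.58), and MTX2 turned to 0.0155 with GC content and length trends removed and to 0.0080 without Flag-IP 1.

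None of the 4 genes of the matrix motor was called. PAM16, which holds the J-protein of the motor in check, had 249, 217 and 190.0 normalized counts in the Flag-IPs against 135, 192 and 178 in the HA-IPs. Its groups overlapped, and its log2 fold change of -0.38 carried a SE of 0.157 (adjusted p = 0.137), the second largest error among the members after TIMM8B. The readthrough gene CORO7-PAM16 shares 22.4% of its exon bases. TIMM44, which anchors the motor to the channel, had 2482, 2608 and 2505 in the Flag-IPs against 2412, 2423 and 2427 in the HA-IPs, at a log2 fold change of -0.06 (adjusted p = 0.443). The nucleotide exchange factors of the motor were near 0. GRPEL1 had 1254, 1210.1 and 1081 in the Flag-IPs against 1118, 1179.6 and 1255 in the HA-IPs, a log2 fold change of 0.0042 (adjusted p = 0.98) whose sign turned with the same total per library (-0.05). GRPEL2 had 1280.5, 1167 and 1167 in the Flag-IPs against 1235, 1041 and 1151 in the HA-IPs, a log2 fold change of -0.08 (adjusted p = 0.549).

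In the MIA relay, which oxidizes the cysteines of small TIM and related proteins, CHCHD4 is the import receptor and GFER re-oxidizes it. CHCHD4 had 442, 476 and 437 normalized counts in the Flag-IPs against 336, 406 and 417 in the HA-IPs. The groups did not overlap, and the log2 fold change was -0.23 (SE 0.1, adjusted p = 0.161). GFER was on the other side of 0, at 0.16 (adjusted p = 0.197), with 1177 to 1450.0 in the Flag-IPs and 1408 to 1505 in the HA-IPs, and 41.5% of its exon bases overlap a long noncoding RNA on the opposite strand.

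PMPCA (ENSG00000165688, chr9:136410630-136427992, 13 exons) was the member called higher in the HA-IPs. MPP, of which it is the alpha subunit, cuts presequences from imported proteins. PMPCA had 5537, 5668 and 6069 normalized counts in the Flag-IPs against 6785, 6737 and 6916 in the HA-IPs. The HA-IPs were close together and all above the Flag-IPs, with a log2 fold change of 0.24 (SE 0.049, 95% interval 0.14 to 0.35, adjusted p = 0.00947), or 1.18-fold. The call was lost without Flag-IP 2 (adjusted p = 0.0631) and held in the other 5 such fits. PMPCB, the catalytic beta subunit, was at 0.09 (adjusted p = 0.302), and OXA1L was at 0.12 (adjusted p = 0.129) with separate groups of 3067 to 3253 and 3358 to 3477.

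HSCB (ENSG00000100209, chromosome 22), a J-protein that works with the matrix HSP70 in the transfer of iron-sulfur clusters, had 310.4, 276 and 260.1 normalized counts in the Flag-IPs against 203, 184 and 195 in the HA-IPs. All Flag-IPs lay above all HA-IPs, with the log2 fold change at -0.53 (SE 0.112, adjusted p = 0.0112), or 1.45-fold more in the Flag-IPs. The call was lost without Flag-IP 2 (adjusted p = 0.0538) or HA-IP 2 (0.0563). CHEK2 overlaps 20.2% of the HSCB exon bases on the opposite strand and was at 0.03 (adjusted p = 0.80). TIMMDC1, an assembly factor of respiratory complex I, was at 0.03 (adjusted p = 0.882).

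**Figure D2:**
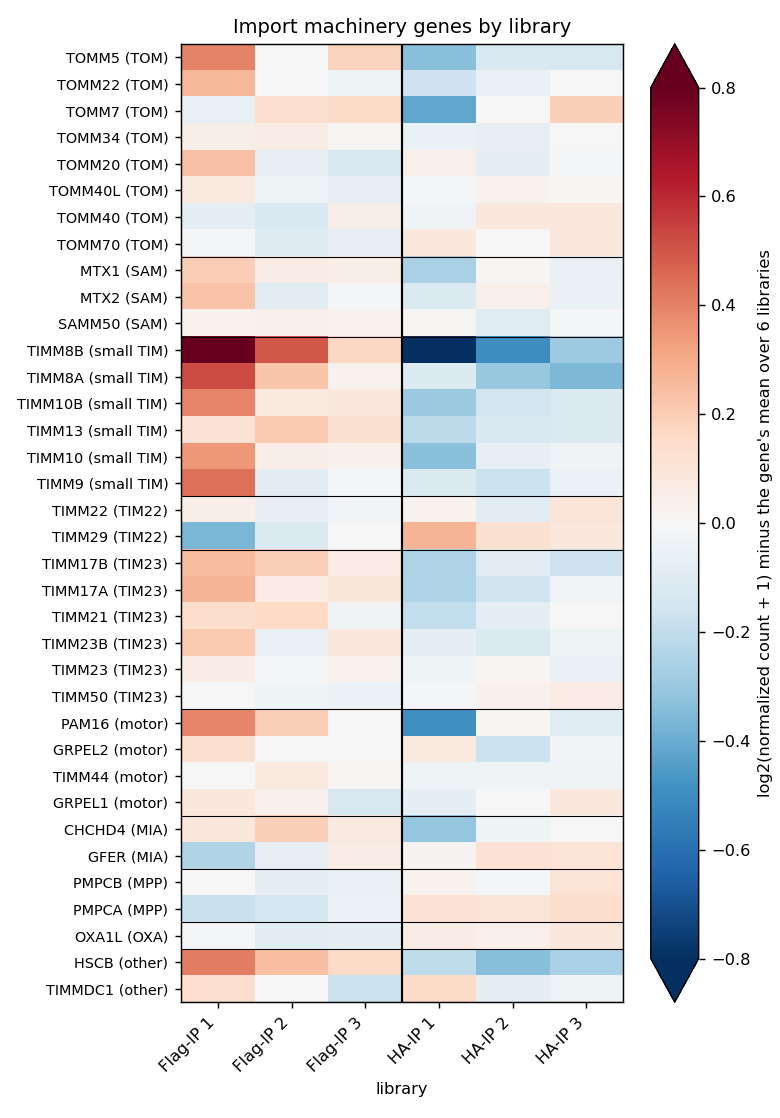
Each row is a member and each column a library, and the colour gives log2(normalized count + 1) minus the mean of that gene over the 6 libraries (colours saturate at 0.8 in either direction). Flag-IP 1 is the reddest column, with the highest value for 18 of the 36 members, and HA-IP 1 is the bluest, with the lowest value for 15.

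The members moved unequally across libraries of the same group. Averaged over the 36 members, the value centred on each gene's mean was 0.156, 0.0367 and 0.0160 in Flag-IP 1, 2 and 3 and -0.123, -0.0638 and -0.0217 in HA-IP 1, 2 and 3, on the log2 scale. For the 6 small TIM genes the corresponding averages were 0.476, 0.163 and 0.0701 in the Flag-IPs against -0.333, -0.217 and -0.159 in the HA-IPs. The heart marker sum followed the same order within the Flag-IPs, with 142513, 102334 and 66886 normalized counts, and was highest among the HA-IPs in HA-IP 3. So did the 515 other protein-coding genes with short transcripts described below, with averages of 0.271, 0.0872 and 0.0747 in the Flag-IPs against -0.291, -0.125 and -0.0164 in the HA-IPs. The members together took a nearly constant 0.222% to 0.244% of the normalized counts of each library. The part of the heart transcripts and of the short-transcript pattern in the members' values was not tested.

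Transcript length went with the direction of the difference, both among the members and among other genes. Of the 6 members whose canonical transcript has at most 1000 bases, 3 were called higher in the Flag-IPs, TIMM8B, TIMM17B and TOMM5, and the median log2 fold change was -0.36. Of the 14 members over 1000 to 2000 bases, 4 were called higher in the Flag-IPs. Of the 16 members over 2000 bases none was called higher in the Flag-IPs by limma, with 1 called higher in the HA-IPs and 5 of the 16 at an unadjusted p under 0.05 in either direction. The other protein-coding genes whose mean reached 100 normalized counts showed the same gradient. Among 515 of them with at most 1000 bases 26.8% were called higher in the Flag-IPs, among 1810 over 1000 to 2000 bases 11.2%, and among 8972 longer ones 4.85%. Their medians were -0.24, -0.05 and 0.04. An unadjusted p under 0.05 in limma was reached by 2895 of the 8972 longer ones. The log2 fold change correlated with log2 transcript length over the 36 members (Pearson's r = 0.539, Spearman's rho = 0.605) and less over the 11297 other genes (0.193 and 0.275). It also went with the mean level over the members (r = 0.609, rho = 0.699). These are descriptions across genes of the same 6 libraries, and genes are not independent replicates.

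**Figure D3:**
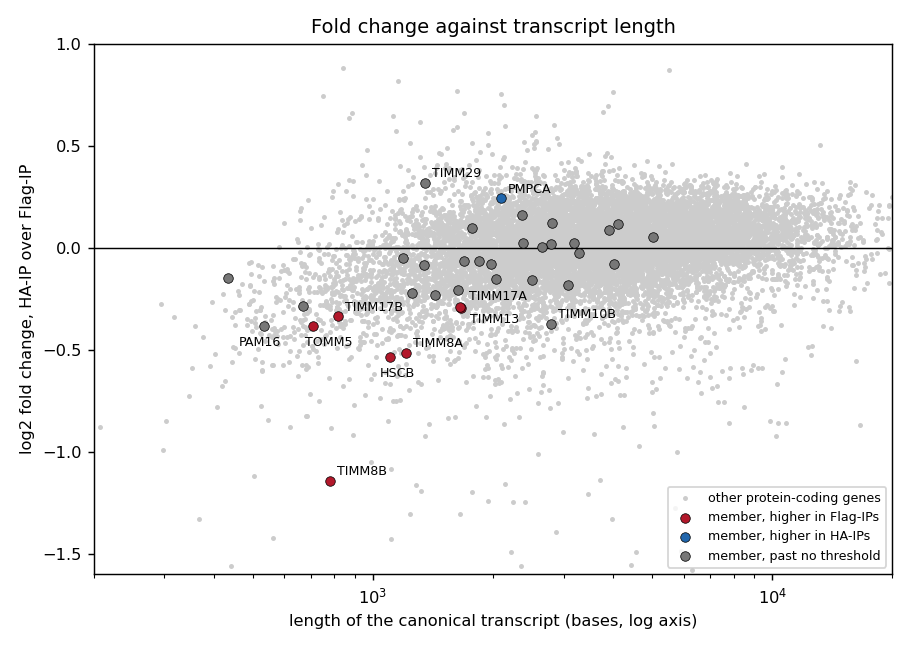
The log2 fold change of HA-IP over Flag-IP (y axis) against the length of the canonical transcript in bases (log x axis) for the 36 members (large points, coloured by call) and 11297 other protein-coding genes whose mean reached 100 normalized counts (small grey points, 74 of them beyond the axes). The called members below 0 have transcripts of 706 to 1664 bases, and both the members and the grey cloud tilt downward toward short transcripts.

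When the dependence on GC content and length was taken out within each library, 6 members were called higher in the Flag-IPs, with 2 in the HA-IPs, beside 7.94% and 6.90% of all genes in that fit. TIMM8B (-0.95, adjusted p = 0.00148), TIMM8A (-0.39, 0.031), TIMM13 (-0.24, 0.00904), TIMM17A (-0.23, 0.0159) and HSCB (-0.40, 0.025) kept their calls, and TIMM10B (-0.38, 0.0321) gained one. TOMM5 (-0.18, adjusted p = 0.189) and TIMM17B (-0.15, adjusted p = 0.12) lost theirs. PMPCA was at 0.28 (adjusted p = 0.00129), and TIMM29 gained a call at 0.43 (adjusted p = 0.00975). The median of the 6 shortest members moved from -0.36 to -0.14, and that of the 6 small TIM genes from -0.33 to -0.31.

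The balance between paralogs was compared within each library, where scaling cancels. The log2 ratio of TIMM8A to TIMM8B was -0.50 ± 0.198 in the Flag-IPs and 0.126 ± 0.456 in the HA-IPs (SD, n = 3 each, exact permutation test, two-sided, p = 0.1, adjusted p = 0.4 over 4 pairs). The ratio was -0.72, -0.46 and -0.33 in Flag-IP 1, 2 and 3 and 0.63, 0.005 and -0.26 in HA-IP 1, 2 and 3. In counts not divided by transcript length, TIMM8A was thus lower in all 3 Flag-IPs and higher in 2 of the 3 HA-IPs. Per kb of canonical transcript its mean lay below that of TIMM8B in both groups, at 351 against 790.2 in the Flag-IPs and 244 against 352 in the HA-IPs. The p of 0.1 is the smallest that 3 against 3 can give. The ratio of TIMM17A to TIMM17B differed by 0.05 between the groups (p = 0.6 in the exact permutation test), of TOMM40 to TOMM40L by 0.08 (exact p = 0.4) and of GRPEL1 to GRPEL2 by 0.08 (exact p = 0.5), each with an adjusted p of 0.6.

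Levels between genes were compared as normalized counts per kb of canonical transcript. The order thus depends on the length of 1 transcript per gene. TIMM50, with means of 6937.5 and 7200 normalized counts in the Flag-IPs and HA-IPs, ranked 7 per kb at a length of 5037 bases. TOMM40 was highest, with 3721 ± 235 in the Flag-IPs and 3978 ± 176 in the HA-IPs (SD, n = 3 each). PMPCA followed with 2760 ± 133 and 3266 ± 44.5, then TOMM20 with 2570 ± 355 and 2514 ± 101, TIMM23 with 2253 ± 50.9 and 2174 ± 57.8 and SAMM50 with 1868 ± 12.1 and 1786 ± 67.4. In the Flag-IPs PMPCA and TOMM20 did not differ beyond their spread, while in the HA-IPs PMPCA stood clear of both TOMM40 and TOMM20. The central pore or core genes of TOM, TIM23 and SAM were thus among the 5 highest. The small TIM genes apart from TIMM13 lay lower, and the lowest member was TIMM10B, with 115 ± 14.6 and 88.8 ± 5.75 per kb. TIMM8B lay at 790.2 ± 250.1 per kb in the Flag-IPs and 352 ± 76.6 in the HA-IPs, so its place among the members differed between the groups. TIMM8A lay at 351 ± 61.3 and 244 ± 22.4, and TIMM17B (1648 ± 108 and 1304 ± 69.5) above TIMM17A (1056 ± 82.9 and 865 ± 68.5) in both groups.

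**Figure D4:**
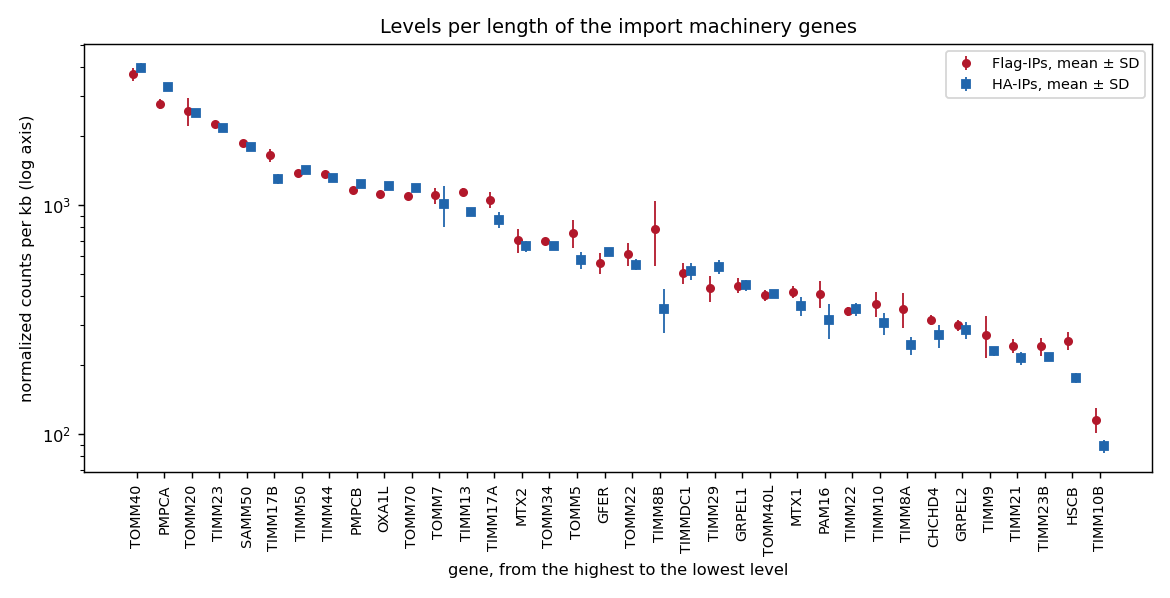
Normalized counts per kb of canonical transcript (log y axis) for the 36 members ordered from highest to lowest (x axis), with circles for the mean of the 3 Flag-IPs and squares for the mean of the 3 HA-IPs, and bars for ± SD. The level falls from 3721 and 3978 for TOMM40 to 115 and 88.8 for TIMM10B, and the markers of TIMM8B are the farthest apart.

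Genes that work with the import machinery but carry other names were taken as a list of 36, of which 35 were tested and DNLZ was not analysed here. Of these, 6 passed with more in the HA-IPs (17.1%), and 7 with more in the Flag-IPs (20.0%), with a median of -0.01. The same test called 5.79% and 7.10% of all genes in these directions. HSPA9, the HSP70 of the import motor, had 30095, 30072 and 32987 normalized counts in the Flag-IPs against 36026, 36622 and 38490.0 in the HA-IPs, at a log2 fold change of 0.26 (adjusted p = 0.0116). The matrix chaperonin HSPD1 was at 0.22 (adjusted p = 0.0247), the presequence-degrading protease PITRM1 at 0.25 (0.0085), the inner membrane proteases AFG3L2 and YME1L1 at 0.24 (0.0105) and 0.21 (0.0196), and the cristae organizer IMMT at 0.21 (0.0108). All 6 had separate groups, but they had been picked by their call. Over the 35 partner genes tested, the groups were separate for 10 with the HA-IPs higher and for 7 with the Flag-IPs higher. Over all genes the share was 16.1% in each of these directions.

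Among the 7 partner genes higher in the Flag-IPs ROMO1 stood farthest from 0. ROMO1, a small inner membrane protein tied to TIM23, had 356, 228 and 199 normalized counts in the Flag-IPs against 48.0, 124 and 168 in the HA-IPs, with a log2 fold change of -1.33 (SE 0.370, adjusted p = 0.0374). DNAJC19, the J-protein that PAM16 pairs with, had 391, 299.9 and 298 in the Flag-IPs against 183, 223 and 268 in the HA-IPs, at -0.56 (adjusted p = 0.0354). HSPE1, the co-chaperonin of HSPD1, was at -0.57 (adjusted p = 0.0477), on the other side of 0 from its partner. The peptidase subunit IMMP1L was at -0.75 (adjusted p = 0.0215), the cristae proteins MICOS10 and CHCHD3 at -0.62 (0.005) and -0.25 (0.0447), and the outer membrane insertase MTCH2 at -0.46 (0.00841). AGK, a lipid kinase that is also a TIM22 subunit, was at 0.09 (adjusted p = 0.31). After GC and length trends were removed 5 partner genes passed with more in the Flag-IPs and 7 with more in the HA-IPs (beside 7.94% and 6.90% of all genes). In that limma fit HSPE1 (-0.33, adjusted p = 0.0527) and CHCHD3 (-0.18, 0.0742) lost their calls, and OMA1 (0.25, 0.0499) gained one. The counts depended on single libraries, with 0 and 2 called without Flag-IP 2 (8 and 7 at an unadjusted p under 0.05 in limma), 2 and 1 without HA-IP 1, 3 and 3 without HA-IP 2 and 2 and 4 without HA-IP 3, for the HA-IP and Flag-IP directions. Over all genes those fits called 0.612% and 3.07%, 1.34% and 3.30%, 1.59% and 3.75%, and 1.89% and 5.33%, in the same order.

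The main groups of import clients that are also encoded in the nucleus are listed beside the members by count only. Of 78 mitochondrial ribosomal protein genes, 9 were called higher in the Flag-IPs (11.5%) and 0 higher in the HA-IPs by limma, with 17 at an unadjusted p under 0.05 in either direction. Their median log2 fold change was -0.12, and -0.02 after GC and length trends were removed, where 5 were called higher in the Flag-IPs and 2 in the HA-IPs. Of 80 subunits of the respiratory chain and ATP synthase, 13 were called higher in the Flag-IPs (16.2%) and 2 higher in the HA-IPs, with a median of -0.24 that moved to -0.05 in the same fit, where 4 were called higher in the Flag-IPs and 3 in the HA-IPs. The shares of all genes called were 7.10% and 5.79% in the Flag-IP and HA-IP directions, and 7.94% and 6.90% in that fit. In the main limma fit an unadjusted p under 0.05 was reached by 35 of the 80 subunits and by 4587 of all 16834 genes. The median transcript lengths of the ribosomal and respiratory lists were 1242 and 760.5 bases, beside 1805.5 bases for the members. Of 3 listed pseudogenes of members, MTX1P1, TOMM40P4 and TOMM40P2, 0 were called by limma, with adjusted p-values of 0.557, 0.641 and 0.184.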

How the data were processed

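The authors used Trimmomatic 0.36 for trimming, STAR 2.5.2b for mapping to GRCh38, counted reads per gene with featureCounts (Subread 1.5.2) and excluded genes with fewer than 10 reads in at least 3 samples. The annotation release and the strand setting are not given in the sources used here. The deposited signal per library is a normalized count, for which the authors divided the reads of a gene by the DESeq2 size factor. The table also holds the authors' log2 fold changes and adjusted p-values, which were not used, and 1857 of its genes carry no symbol.

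Here limma 3.58.1 in R 4.3.3, with its mean-variance trend, was fitted to log2(normalized count + 1) of all 16834 genes without a block (two-sided, Benjamini-Hochberg adjustment, threshold 0.05). No count model was used. Every value was a whole multiple of a fixed step per library (largest deviation 6.4e-05 of a step), from which the reads per library were taken. On simulated data with 200 of 16834 genes changed, the fit made 7 false calls. It recovered 98 of 102 genes changed by 0.5 and 98 of 98 changed by 1 on the log2 scale. These counts hold for the simulated spread only, and recovery and false calls in the real libraries were not tested. In the real libraries the SE of TIMM8B was 0.205. The average of the other short-transcript genes ran there from 0.271 in Flag-IP 1 to -0.291 in HA-IP 1. Single ratios were compared with an exact permutation test in scipy 1.17.1. Alternatives covered the pseudocount, a filter on low values, scaling, the trend, a block, GC content and length, the threshold and leaving out each library.

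GENCODE 44 supplied coordinates, exons, transcript lengths and coding sequences for 16683 genes (99.1%). The members and gene lists were chosen with earlier results of these data known. Values per library are given for each called member, the 4 uncalled members with the largest change, 4 paralog pairs, and TOMM40, TOMM20, TIMM23, TIMM44, SAMM50 and CHCHD4, and for partner genes that were called or are HSPA9, DNAJC19, ROMO1 or AGK at least the fold change.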

Additional observations from a re-analysis of the deposited data

How the results depend on the processing

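The planned edgeR and DESeq2 fits on reads recovered from the scaled values were not run. A pseudocount of 0.1 or 10, a minimum mean of 50, or the same upper quartile per library changed no call among the members; quantile normalization removed TOMM5 and the same total per library added TIMM10B, and the latter called 471 genes of the table higher in the HA-IPs against 975. Without the trend limma called 0 members in either direction (2 and 8 at an unadjusted p under 0.05), 0 partner genes (7 and 6), and 6 and 182 of all genes. With GC content and length trends removed 2 members were called higher in the HA-IPs. At a threshold of 0.01, 2 members remained higher in the Flag-IPs, with 177 and 527 of all genes and 1 and 2 partner genes. Quantile normalization left 3 and 4 partner genes, with 704 and 1004 of all genes. With each library left out, members called ran from 0 to 3 (HA-IP) and 2 to 8 (Flag-IP), all genes from 103 to 1550 and 517 to 1509, and partner genes from 0 to 6 and 1 to 7. Replicate numbers are shared between the groups, but same-numbered libraries did not deviate together (correlations of -0.156, 0.0306 and -0.310), so they were not treated as pairs. Differently numbered libraries reached 0.302 (Flag-IP 1 with HA-IP 3), and with 3 libraries per group these correlations cannot exclude pairing. With a replicate block TOMM5 (adjusted p = 0.0899) and TIMM17A (0.0642) lost their calls. That fit called 1 and 5 members and 6 and 2 partner genes, beside 752 and 910 of all genes. Some uncalled values changed sign: TOMM40L (-0.0319), GRPEL1 (-0.0487), TIMM22 (-0.0274) and TIMMDC1 (-0.0266) with the same total per library, TIMM50 (-0.0075) with quantile normalization, TIMM23 (0.0766), TOMM7 (0.11) and MTX2 (0.0155) with GC and length trends removed, and the TIMM17A to TIMM17B difference in that fit (-0.0811). Over the fits that left out a library the sign also changed for TOMM40L (-0.0059 to 0.0641), GRPEL1 (-0.0587 to 0.0486), TOMM20 (-0.094 to 0.0863), TOMM7 (-0.281 to 0.0225), MTX2 (-0.15 to 0.0080), TIMM22 (-0.0191 to 0.0767), TIMMDC1 (-0.0535 to 0.101) and the TIMM17A to TIMM17B difference (-0.0124 to 0.0939). The cause was not tested for any of these. In each pair of numbers the HA-IP direction comes first.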
